A study of Mus musculus with 6 samples.

Results

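The MS4A genes encode small surface proteins that cross the membrane several times and sit in a tandem cluster on mouse chromosome 19. The 9 members described here were taken by symbol (Ms4a3, Ms4a4a, Ms4a4b, Ms4a4c, Ms4a6b, Ms4a6c, Ms4a6d, Ms4a7 and Ms4a8a) out of 34199 gene symbols in each count file. Of these, 8 were listed in the files, where Ms4a4a was not found, and 7 passed the filter on low counts. RNA was sequenced from iGMPs, mouse granulocyte-macrophage progenitors (GMPs) of strain C57Bl/6 that were immortalized with HOXA9 fused to the ligand-binding domain of a mutant estrogen receptor and that carry a GFP reporter under the lysozyme promoter (Lys-GFP-ER-HoxA9 cells). All were grown in medium with stem cell factor, and there were 2 libraries in each of 3 groups, all at 24 h. In the CAF-1 OFF group, IPTG at 500 µM induced a short hairpin RNA that targets Chaf1b, which encodes part of CAF-1, the chaperone that places histones on newly copied DNA, while 150 ng/ml estradiol kept the HOXA9 fusion active. The control group received IPTG and the same estradiol, and its labels do not name a vector. For IPTG induction the paper used a control vector with a stuffer sequence, in clones other than those with the hairpin. If the control libraries came from such clones, a difference between clones and an effect of the hairpin cannot be told apart. In the HOXA9 OFF group the cells were washed and cultured without estradiol, which inactivates the fusion, and the labels do not say whether IPTG was present. The hairpin was used in clones of 1 immortalized line, and the labels do not say which clone gave which library or whether replicates were separate cultures, so every p-value measures only the spread between these libraries.

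MS4A proteins act mainly as partners of other surface receptors and signaling molecules, and most of them are restricted to particular blood cells. Ms4a3 is a gene of granulocyte-monocyte progenitors, and its human product binds the phosphatase CDKN3, which acts on the cell cycle kinase CDK2. Genes of the Ms4a6 group and Ms4a7 are typical of monocytes and macrophages, Ms4a4b is known from T cells, Ms4a1 encodes the B cell antigen CD20, and Ms4a2 encodes the beta chain of the high-affinity IgE receptor of mast cells and basophils. The comparisons ask how the family's transcripts stood after CAF-1 was suppressed, after HOXA9 was inactivated along the route to normal neutrophil differentiation, and between these conditions.

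On the NCBIM37 build (mm9), with GENCODE M1 gene models, the listed members are protein coding genes of chromosome 19. From left to right they are Ms4a8a (11141962 to 11155593, minus strand), Ms4a7 (11395529 to 11410636, minus), Ms4a4c (11479260 to 11501736, plus), Ms4a4b (11518043 to 11538039, plus), Ms4a6c (11543858 to 11556687, plus), Ms4a6b (11591002 to 11605746, plus), Ms4a6d (11661094 to 11679339, minus) and Ms4a3 (11703987 to 11715341, minus). No other annotated gene overlapped a member. The closest copies were Ms4a4b and Ms4a4c, whose coding sequences were identical at 91.8% of 681 aligned bases. Within the Ms4a6 group the identity was 85.3% between Ms4a6b and Ms4a6c, 80.7% between Ms4a6b and Ms4a6d, and 76.3% between Ms4a6c and Ms4a6d, while no other pair of members exceeded 61.1%. Stretches of 50 bases that also occur in the coding transcripts of another gene made up 5.32% of Ms4a4b, 4.96% of Ms4a4c, 3.44% of Ms4a6b, 6.78% of Ms4a6c, 2.69% of Ms4a6d and 0% of Ms4a3, Ms4a7 and Ms4a8a. These shares cover only exact matches among coding transcripts, so the counts of the copies are uncertain to an extent that was not measured.

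The copies also resemble each other upstream of the gene. RefSeq start sites (GRCm38.p6 table, placed on NCBIM37 by exact match) were given for 8 of the 9 members in 9 promoters, Ms4a7 having 2, with no entry for Ms4a6d. Stretches upstream of the start are shown for the 2 duplicated pairs and for Ms4a7 and Ms4a3, each ending within 5 bases of the start except that of Ms4a6b, which covers 173 to 71 bases upstream because there it aligns with Ms4a6c, 5′ to 3′ on the strand of the gene. Capitals mark GGAAGT, a core favored by ETS transcription factors, or its complement ACTTCC. The stretches lie at chr19:11482051-11482150 (Ms4a4c, plus), chr19:11517945-11518043 (Ms4a4b, plus), chr19:11543758-11543856 (Ms4a6c, plus), chr19:11592876-11592978 (Ms4a6b, plus), chr19:11410637-11410736 (Ms4a7, minus) and chr19:11715342-11715441 (Ms4a3, minus).
Ms4a4c: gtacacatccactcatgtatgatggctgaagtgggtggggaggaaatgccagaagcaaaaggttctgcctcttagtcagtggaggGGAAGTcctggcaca
Ms4a4b: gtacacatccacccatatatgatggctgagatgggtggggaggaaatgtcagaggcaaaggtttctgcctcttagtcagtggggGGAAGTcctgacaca
Ms4a6c: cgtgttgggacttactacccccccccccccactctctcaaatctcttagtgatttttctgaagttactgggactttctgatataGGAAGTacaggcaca
Ms4a6b: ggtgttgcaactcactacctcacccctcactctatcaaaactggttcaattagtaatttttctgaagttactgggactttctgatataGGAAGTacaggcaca
Ms4a7: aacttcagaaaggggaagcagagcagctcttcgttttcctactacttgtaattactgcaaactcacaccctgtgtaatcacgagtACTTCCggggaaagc
Ms4a3: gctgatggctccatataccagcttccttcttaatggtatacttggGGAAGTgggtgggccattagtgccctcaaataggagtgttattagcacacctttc

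The printed Ms4a4c and Ms4a4b stretches were identical at 90 of 99 aligned bases, and those of Ms4a6c and Ms4a6b at 87 of 97. GGAAGT was searched on both strands of the 250 bases before each start and was found in 6 of the 9 member promoters (66.7%), against 6485 of 32851 promoters in the whole table (19.7%). It ended within 20 bases of the start in 4 of 9 (44.4%), those of Ms4a7, Ms4a4c, Ms4a4b and Ms4a6c, against 2.18% of all promoters, a distance chosen after the positions were seen. In Ms4a3 it stood 55 to 50 bases upstream, and in Ms4a6b 85 to 80 bases upstream, with a second match on the other strand at 43 to 38 bases, outside the printed stretch. The longer PU.1 form GAGGAAGT, which contains GGAAGT, was in 0 of 9 (2.44% of all promoters), the C/EBP form TTNNGCAA in 0 of 9 (9.56%), and the RUNX form TGTGGT in 1 of 9, that of Ms4a4c (14.0%). The GGAAGT match of Ms4a4c aligns with that of Ms4a4b, and that of Ms4a6c with the printed match of Ms4a6b. The promoters of each pair are therefore not independent of each other. A match is a run of letters and not a measured binding site. Relative to the RefSeq start, the GENCODE gene start lay at -2891 bases for Ms4a4c and at -2047 bases for Ms4a6b, so the start used in these cells may be another one.

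Each library held 16773560 to 25170898 counts assigned to genes, and levels are given as CPM, the counts of a gene scaled to a common library size. On that scale the floor of 3 counts equals 0.118 to 0.182 CPM. Chaf1b, the target of the hairpin, stood at 90 and 105 CPM in control, 17.8 and 12.1 in CAF-1 OFF and 64.6 and 61.4 in HOXA9 OFF. Of 10 GMP markers 10 were tested, and their summed level was 12600 to 15800 CPM in control, 16700 to 18300 in CAF-1 OFF and 12400 to 15500 in HOXA9 OFF, where 6 were called lower and 1 higher (22% of all genes tested were called in HOXA9 OFF against control and 13% were called higher). Late neutrophil markers (10 genes, 9 of them tested, none at 0 in all libraries) summed to 100 to 109 CPM in control, 434 to 696 in CAF-1 OFF and 470 to 837 in HOXA9 OFF. Of the 9 tested, 8 were called higher in HOXA9 OFF, against the same 13% of all genes. In CAF-1 OFF against control 0 of them were called, where 0.0321% of all genes were called. Monocyte and macrophage markers (11 genes tested) summed to 455 to 619 CPM in control, 530 to 618 in CAF-1 OFF and 752 to 966 in HOXA9 OFF, where 9 were called higher, again against 13% of all genes, and 1 lower. Their part in the MS4A differences was not tested, and in these bulk libraries a change in the share of cells that express a gene and a change in RNA per cell cannot be told apart.

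Per length of exon (RPKM, the CPM divided by the exon length in kilobases), Ms4a3 was by far the most abundant member in every group, at 132 ± 33.2 in control (SD, n = 2, as for all means here). Ms4a6c followed at 5.93 ± 0.631, then Ms4a6b at 1.73 ± 0.569 and Ms4a6d at 1.47 ± 0.0958, whose libraries overlapped. Ms4a4c (0.0668 ± 0.000702), Ms4a7 (0.0544 ± 0.0521) and Ms4a4b (0.0499 ± 0.00732) were near the floor, with 2 to 7 counts in each control library, and the libraries of Ms4a7 overlapped those of both others. In CAF-1 OFF the order was Ms4a3 (278 ± 27.9), Ms4a6c (7.07 ± 2.29), Ms4a6d (6.04 ± 0.413), Ms4a6b (2.11 ± 0.245), Ms4a4c (0.469 ± 0.00852), Ms4a7 (0.109 ± 0.0224) and Ms4a4b (0.101 ± 0.0738), and Ms4a6c and Ms4a6d overlapped, as did Ms4a7 and Ms4a4b. In HOXA9 OFF it was Ms4a3 (326 ± 101), Ms4a6c (61.6 ± 1.11), Ms4a6d (12.6 ± 5.33), Ms4a6b (5.53 ± 0.432), Ms4a4c (3.99 ± 1.33), Ms4a7 (3.66 ± 4.22) and Ms4a4b (0.549 ± 0.0774), and the libraries of Ms4a7 overlapped those of Ms4a4c and Ms4a6b. By the length of the longest transcript instead of all exons, Ms4a6d (7.39) stood above Ms4a6c (7.09) in CAF-1 OFF, Ms4a7 (4.52) above Ms4a4c (4.05) in HOXA9 OFF, and Ms4a4b stood above Ms4a7 in CAF-1 OFF and above Ms4a4c and Ms4a7 in control, so these neighbours have no settled order. Ms4a6d stood above Ms4a6b in both libraries of CAF-1 OFF and of HOXA9 OFF.

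**Figure D1:**
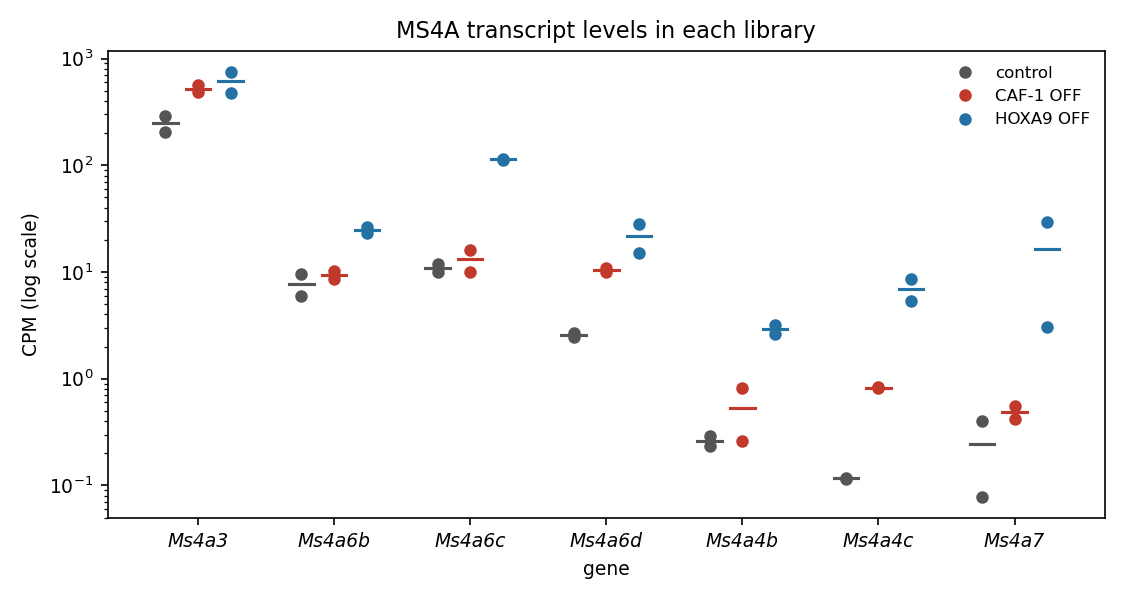
Level of each member that passed the filter, in CPM on a log axis, with 1 point per library and a line at the mean of each group of 2. HOXA9 OFF points lie above both control points for the 7 genes plotted, where 71% of all genes tested did not overlap in one direction or the other, and the HOXA9 OFF points of Ms4a7 (3.04 and 29.6 CPM) are the widest apart.

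Ms4a3, which the paper lists among early granulocyte genes, was called higher in HOXA9 OFF than in control. Its estimates for CAF-1 OFF and HOXA9 OFF lay closer together than those of any other member. It was at 292 and 204 CPM in control, 561 and 487 in CAF-1 OFF and 749 and 480 in HOXA9 OFF. Both treated groups lay above control without overlap, and they overlapped each other. With edgeR's quasi-likelihood test over all genes, HOXA9 OFF against control gave a log2 fold change of 1.31 ± 0.25 (SE) and an FDR of 0.00994, while CAF-1 OFF against control gave 1.08 ± 0.25 (95% interval 0.49 to 1.67) and an FDR of 0.238, which was not called. The direct contrast of CAF-1 OFF with HOXA9 OFF was -0.23 ± 0.25 (interval -0.81 to 0.35, edgeR FDR 0.519), an interval that leaves room for a difference of either sign. Without control replicate 2, which had the lowest level, the HOXA9 OFF call was lost (1.07, edgeR FDR 0.0566). Replicate 1 was the higher library in every group, and so it was for the sum of the 7 other early granulocyte markers, at 11800 and 8790 CPM in control, 14000 and 12800 in CAF-1 OFF and 14300 and 11100 in HOXA9 OFF. The part of that shared difference in the Ms4a3 values was not tested.

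Among the Ms4a6 genes, Ms4a6c had the smallest standard errors of the family and separated HOXA9 OFF from both other groups. Its level was 10.1 and 11.8 CPM in control, 10.1 and 16.1 in CAF-1 OFF and 112 and 115 in HOXA9 OFF. Control and CAF-1 OFF overlapped, and both HOXA9 OFF libraries stood far above them. The log2 fold change of HOXA9 OFF over control was 3.38 ± 0.23 (10.4-fold, edgeR FDR 0.000411), that of CAF-1 OFF over control was 0.26 ± 0.22 (interval -0.26 to 0.78, edgeR FDR 0.731), and the direct contrast was -3.12 ± 0.22 (edgeR FDR 0.000497). The upper limit of the CAF-1 OFF interval is thus below the lower limit of the HOXA9 OFF interval (2.85).

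Ms4a6b, whose printed upstream stretch is the near copy of that of Ms4a6c, showed the same order at a smaller size. It was at 5.97 and 9.58 CPM in control, 8.68 and 10.2 in CAF-1 OFF and 23.4 and 26.2 in HOXA9 OFF. Again only HOXA9 OFF stood clear of the other groups. Against control it rose in HOXA9 OFF by a log2 fold change of 1.68 ± 0.25 (3.21-fold, edgeR FDR 0.00425), against 0.29 ± 0.25 in CAF-1 OFF (interval -0.30 to 0.89, edgeR FDR 0.735), and CAF-1 OFF was lower than HOXA9 OFF by a log2 fold change of -1.39 ± 0.25 (edgeR FDR 0.00819).

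Ms4a6d differed from the other Ms4a6 genes in CAF-1 OFF, where its estimate was larger. The control libraries were at 2.44 and 2.67 CPM, CAF-1 OFF at 9.98 and 11, and HOXA9 OFF at 15.2 and 28.3. The 3 groups did not overlap, and CAF-1 OFF lay between control and HOXA9 OFF. The CAF-1 OFF difference from control was 2.04 ± 0.32 on the log2 scale (interval 1.27 to 2.81, 4.11-fold), with an unadjusted p of 0.000445 in edgeR and an FDR of 0.142, so it was not called. HOXA9 OFF against control was called at 3.09 ± 0.33 (8.52-fold, edgeR FDR 0.00151), and so was CAF-1 OFF against HOXA9 OFF at -1.05 ± 0.30 (edgeR FDR 0.037). The last call was lost when any library but HOXA9 OFF replicate 1 was left out (edgeR FDR 0.0531 to 0.197), and without HOXA9 OFF replicate 2, the higher library, the contrast was -0.54 (edgeR FDR 0.197).

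The Ms4a4 pair was barely detected in control and was clearly present in HOXA9 OFF. Ms4a4c had 3 and 2 counts in control, 16 and 16 in CAF-1 OFF and 179 and 88 in HOXA9 OFF, equal to 0.118 and 0.116, 0.831 and 0.81, and 8.64 and 5.34 CPM. The 3 groups were separate, in that order. HOXA9 OFF against control was called at a log2 fold change of 5.83 ± 0.47 (edgeR FDR 0.00063), and the ratio of pooled counts, scaled for depth, was 61.2 with a counting interval of 25.9 to 190, which covers counting error only. CAF-1 OFF against control was 2.74 ± 0.51 (interval 1.53 to 3.96, edgeR FDR 0.161, unadjusted p 0.00114) and was not called, with a count ratio of 7.01 and a counting interval of 2.71 to 23. CAF-1 OFF against HOXA9 OFF was called at -3.08 ± 0.37 (edgeR FDR 0.00235).

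Ms4a4b, the near copy of Ms4a4c in coding sequence and upstream stretch, had 6 and 5 counts in control, 5 and 16 in CAF-1 OFF and 66 and 43 in HOXA9 OFF, or 0.236 and 0.29, 0.26 and 0.81, and 3.18 and 2.61 CPM. CAF-1 OFF overlapped control, and HOXA9 OFF did not overlap either group. Both HOXA9 OFF libraries, 1 CAF-1 OFF library and no control library were above the filter cutoff, so its calls are given as a description. Ms4a4b was called in HOXA9 OFF against control (3.45 ± 0.59, edgeR FDR 0.00686, count ratio 11.4 with a counting interval of 6.11 to 23.4). It was also called in CAF-1 OFF against HOXA9 OFF (-2.42 ± 0.54, edgeR FDR 0.0179). That estimate was -1.83 without CAF-1 OFF replicate 1 and -3.43 without CAF-1 OFF replicate 2. It was -2.26 without HOXA9 OFF replicate 1 and -2.56 without HOXA9 OFF replicate 2. The call was lost in each of these fits except that without CAF-1 OFF replicate 2. CAF-1 OFF against control was 1.03 ± 0.64 (interval -0.50 to 2.56, edgeR FDR 0.627), and it was 0.02 without CAF-1 OFF replicate 2 and 1.61 without CAF-1 OFF replicate 1. Ms4a4b is known from T cells. In the T and NK cell list, Cd3e, Cd3g, Cd8a and Ncr1 were at 0 counts in all 6 libraries. That list summed to 1.89 to 5.11 CPM in control, 3.49 to 4.05 in CAF-1 OFF and 0.531 to 1.27 in HOXA9 OFF, and its part in the Ms4a4b values was not tested.

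Ms4a7, a macrophage gene, was highest in HOXA9 OFF, but its level there differed widely between the libraries. It had 2 and 7 counts in control, 8 and 11 in CAF-1 OFF and 63 and 488 in HOXA9 OFF, equal to 0.0786 and 0.406, 0.416 and 0.557, and 3.04 and 29.6 CPM. No groups overlapped, and CAF-1 OFF replicate 1 was only just above control replicate 2. Both HOXA9 OFF libraries, 1 CAF-1 OFF library and no control library were above the filter cutoff, so the calls of Ms4a7 are given as a description. HOXA9 OFF against control was called at 6.17 ± 1.27 (interval 3.15 to 9.19, edgeR FDR 0.0127), with a count ratio of 70.2 and a counting interval of 36.7 to 154 that leaves out the spread between libraries. With 1 library left out, that log2 fold change was 3.73 without HOXA9 OFF replicate 2 and 7.04 without HOXA9 OFF replicate 1. It was 7.58 without control replicate 2 and 5.29 without control replicate 1, where the call was lost. CAF-1 OFF against control was 1.13 ± 1.51 (edgeR FDR 0.839), with 0.26 without control replicate 1 and 2.55 without control replicate 2, and CAF-1 OFF against HOXA9 OFF was called at -5.04 ± 1.15 (edgeR FDR 0.0188). That last call was lost without HOXA9 OFF replicate 2 (-2.63, edgeR FDR 0.0676) and without either CAF-1 OFF library (edgeR FDR 0.0865 without replicate 1 and 0.0681 without replicate 2). HOXA9 OFF replicate 2 was also the library with the higher sum of monocyte and macrophage markers, at 966 against 752 CPM, and with the lower sum of late neutrophil markers, at 470 against 837 CPM, and their part in the Ms4a7 level was not tested.

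Ms4a8a, the member nearest the left end of the cluster, had 0 counts in all 6 libraries and was not detectable at this depth. In each library a count of 0 allows a level of up to 0.118 to 0.182 CPM. Ms4a4a was not analysed here beyond its RefSeq promoter, in which GGAAGT did not occur.

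Over the 7 members that passed the filter, 7 were called higher in HOXA9 OFF than in control (edgeR FDR under 0.05 and at least 1.5-fold), where 22% of the 12460 genes tested were called and 13% were called higher. Their median log2 fold change was 3.38, against 0.00 over all genes, and the groups did not overlap, in whichever direction, for 7 of 7 members and 71% of all genes. Ms4a4b and Ms4a7 passed the filter with no control library and 1 CAF-1 OFF library above its cutoff and Ms4a4c with no control library, so their entry into the test depended on the libraries where they were high. Their calls against control are therefore given as a description. Ms4a3, Ms4a6b, Ms4a6c and Ms4a6d passed the filter in all 6 libraries, and each of them was called higher in HOXA9 OFF than in control. In CAF-1 OFF against control, 0 of 7 were called by edgeR's quasi-likelihood test, where 4 genes in all (0.0321%) were called and 3 (0.0241%) were called higher. At an unadjusted p under 0.05 the count was 3 of 7 members (Ms4a3, Ms4a4c and Ms4a6d) and 1330 of all genes. DESeq2's Wald test and edgeR's exact test each called the same 3 members, with 192 and 243 genes called in all, and so did the quasi-likelihood test without the filter on low counts, with 378 genes. All 7 estimates were positive, with a median of 1.08 against 0.00 over all genes, and the groups did not overlap for 4 of 7 members and 40.1% of all genes. Comparing CAF-1 OFF with HOXA9 OFF directly, 6 of 7 members were called lower and Ms4a3 was not called, where 22.1% of all genes were called and 12.6% were called lower, and the median was -2.42 against 0.00. The groups did not overlap there for 6 of 7 members and 66.7% of all genes. Both comparisons with control share the control libraries, so their directions are not independent of each other.

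**Figure D2:**
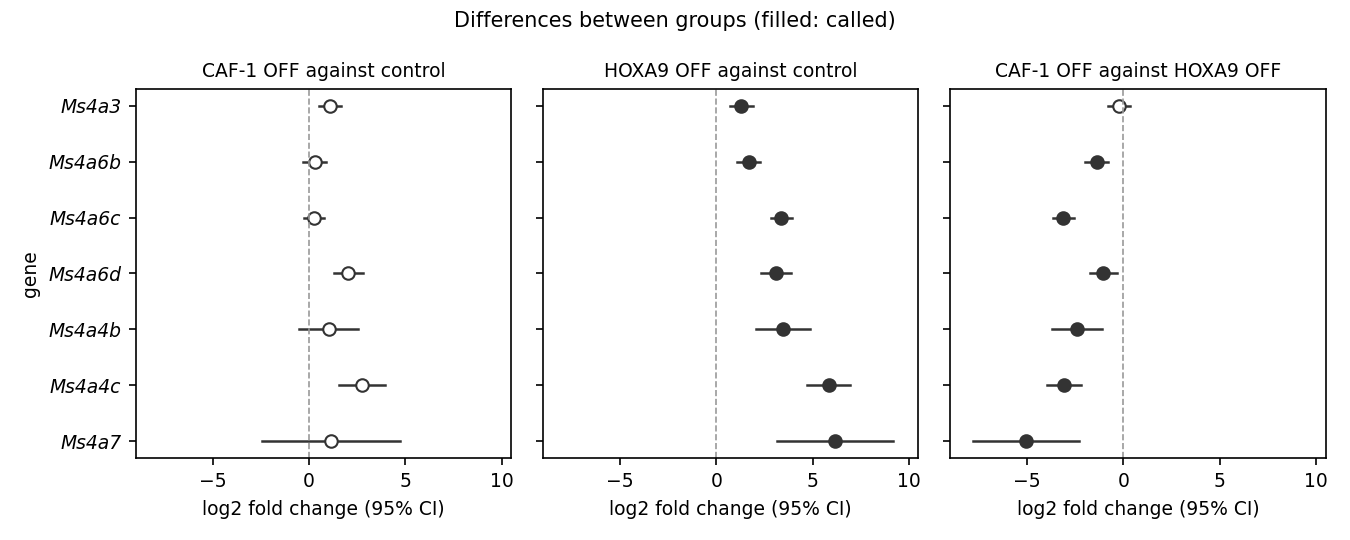
Log2 fold change of each member that passed the filter, with its 95% interval, in the 3 comparisons, where filled points were called (edgeR FDR under 0.05 and at least 1.5-fold). All 7 points are filled in HOXA9 OFF against control (22% over all genes), 0 in CAF-1 OFF against control (0.0321% over all genes), and 6 in CAF-1 OFF against HOXA9 OFF (22.1% over all genes), where Ms4a3 (-0.23) is open. Ms4a4b, Ms4a4c and Ms4a7 entered the test through the libraries where they were high.

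The makeup of the family's transcripts was another in HOXA9 OFF. Ms4a3 made up 93.9% and 89.1% of all member counts in control, 94.9% and 92.5% in CAF-1 OFF, and 81.9% and 69.8% in HOXA9 OFF. The HOXA9 OFF shares were lower than those of the other groups in both libraries. Ms4a6c took 3.26% and 5.15% in control, 1.7% and 3.05% in CAF-1 OFF, and 12.3% and 16.8% in HOXA9 OFF, and Ms4a7 took 0.332% and 4.3% in HOXA9 OFF. Members other than Ms4a3 summed to 19 and 24.8 CPM in control, 30.2 and 39.4 in CAF-1 OFF and 166 and 207 in HOXA9 OFF. The 3 groups did not overlap in that sum, and CAF-1 OFF lay much closer to control than to HOXA9 OFF.

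**Figure D3:**
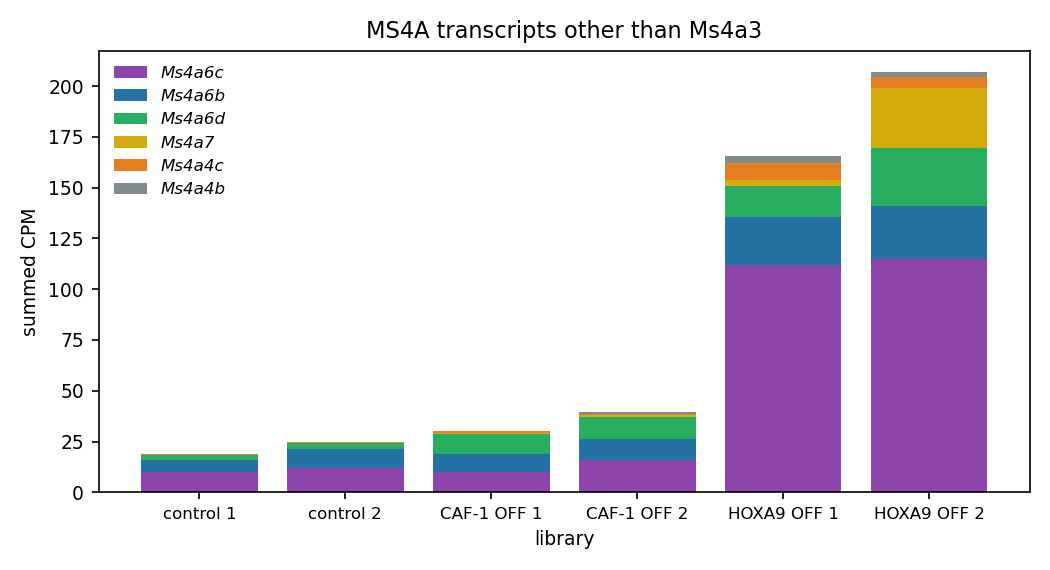
Stacked bars of the CPM of the 6 members other than Ms4a3 that passed the filter, 1 bar per library. The HOXA9 OFF bars reach 166 and 207 CPM, mostly Ms4a6c, and differ from each other mainly in Ms4a7 and Ms4a6d, while the other 4 bars stay between 19 and 39.4 CPM.

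Other genes of the family were mostly at or near 0 counts. Ms4a2, which lies between Ms4a6d and Ms4a3, was detected in all libraries, with 238 and 67 counts in control, 214 and 138 in CAF-1 OFF and 222 and 129 in HOXA9 OFF. These ranges overlapped, and Ms4a2 was called in no comparison, with log2 fold changes of 0.44 ± 0.44 in CAF-1 OFF (edgeR FDR 0.772) and 0.47 ± 0.44 in HOXA9 OFF (edgeR FDR 0.454). The 6 other mast cell and basophil markers summed to 279 to 341 CPM in control, 341 to 749 in CAF-1 OFF and 562 to 585 in HOXA9 OFF, and their part in the Ms4a2 values was not tested. Fcer1a, the partner chain that binds IgE, was at 0 counts in control and CAF-1 OFF and at 1 and 2 in HOXA9 OFF. Ms4a14 was below the filter, with 0 counts in control and CAF-1 OFF and 7 and 37 in HOXA9 OFF, which is at least 16.8-fold higher than a floor of 3 counts over the control group. As for Ms4a7, HOXA9 OFF replicate 2 held most of those reads. Ms4a1 had at most 2 counts in a library, Ms4a4d at most 4 and Ms4a15 at most 1, and Ms4a5, Ms4a10, Ms4a13 and, named after the files were seen, Ms4a12 were at 0 throughout.

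The related genes Tmem176a and Tmem176b, which encode ion channel proteins of the same superfamily and lie side by side on chromosome 6, had another pattern. Tmem176b was at 34.7 and 55.9 CPM in control, 128 and 70.2 in CAF-1 OFF and 24.2 and 40.3 in HOXA9 OFF. CAF-1 OFF lay above both other groups, which overlapped each other. The direct contrast was called, with CAF-1 OFF above HOXA9 OFF (1.62 ± 0.38, edgeR FDR 0.0203), the opposite direction to the 6 members called there, while its differences from control were 1.13 ± 0.37 in CAF-1 OFF (interval 0.25 to 2.02, edgeR FDR 0.361) and -0.49 ± 0.38 in HOXA9 OFF (edgeR FDR 0.369). For Tmem176a the direct contrast was 1.06 ± 0.34 (edgeR FDR 0.055) and was not called.

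Of the signaling molecules known to work with MS4A proteins, the myeloid adaptor Tyrobp and the kinase Syk were called higher in HOXA9 OFF, and the partner of Ms4a3 did not pass the fold cutoff. Tyrobp, an adaptor of activating receptors, was at 110 and 114 CPM in control, 98.1 and 65.7 in CAF-1 OFF and 327 and 297 in HOXA9 OFF, and rose in HOXA9 OFF by a log2 fold change of 1.48 ± 0.19 (edgeR FDR 0.00244). Syk, the kinase downstream of it, rose by 0.75 ± 0.11 (edgeR FDR 0.00432), from 183 and 204 CPM to 326 and 327. Trem2, a lipid receptor of macrophages that signals through Tyrobp, had 0 and 5 counts in control, 0 and 0 in CAF-1 OFF and 44 and 221 in HOXA9 OFF, with replicate 2 of HOXA9 OFF the higher library, as for Ms4a7 and Ms4a14. Since it passed the filter only through the HOXA9 OFF libraries, its call there (5.90 ± 1.38, edgeR FDR 0.0257) is given as a description. Cdkn3 was at 26.5 and 26.5 CPM in control, 34.7 and 36.8 in CAF-1 OFF and 40.8 and 36 in HOXA9 OFF, with log2 fold changes of 0.43 ± 0.12 (edgeR FDR 0.311) and 0.54 ± 0.12 (edgeR FDR 0.0185), under 1.5-fold. Cdk2 and Fcer1g were not called in any comparison, Cdk2 at 0.04 ± 0.10 in HOXA9 OFF against control (edgeR FDR 0.789) and Fcer1g at 0.32 ± 0.23 (edgeR FDR 0.341).

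Genes next to the cluster were called in both directions. The annotated Ms4a genes span 679 kb (11036787 to 11715341), and of 40 protein coding genes within 500 kb of either end, 20 passed the filter. In HOXA9 OFF against control, 2 of these were called higher (Tmem216 at 1.25 ± 0.17, edgeR FDR 0.00336, and Stx3 at 0.97 ± 0.17, edgeR FDR 0.00708) and 4 lower, where 22% of all genes tested were called, and the median log2 fold change over the 20 was 0.05. The lower genes were Tmem132a (-3.83 ± 0.34, edgeR FDR 0.000924), Cd5 (-1.64), Tmem109 (-1.06) and Tmem138 (-0.65). In CAF-1 OFF against control the median over the 20 genes was 0.01, and in CAF-1 OFF against HOXA9 OFF 3 were called higher (Cd5, Tmem132a and Cd6, the last named after its values were seen) and 2 lower (Tmem216 and Stx3), where 22.1% of all genes were called. Cd6 passed the filter only through the CAF-1 OFF libraries, at 1.61 and 1.42 CPM. No other library exceeded 0.243 CPM for this gene, under the cutoff of 0.521, so the Cd6 call is given as a description. Among the genes inside the cluster that are not Ms4a genes, AW112010 alone was tested, and it was not called.

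**Figure D4:**
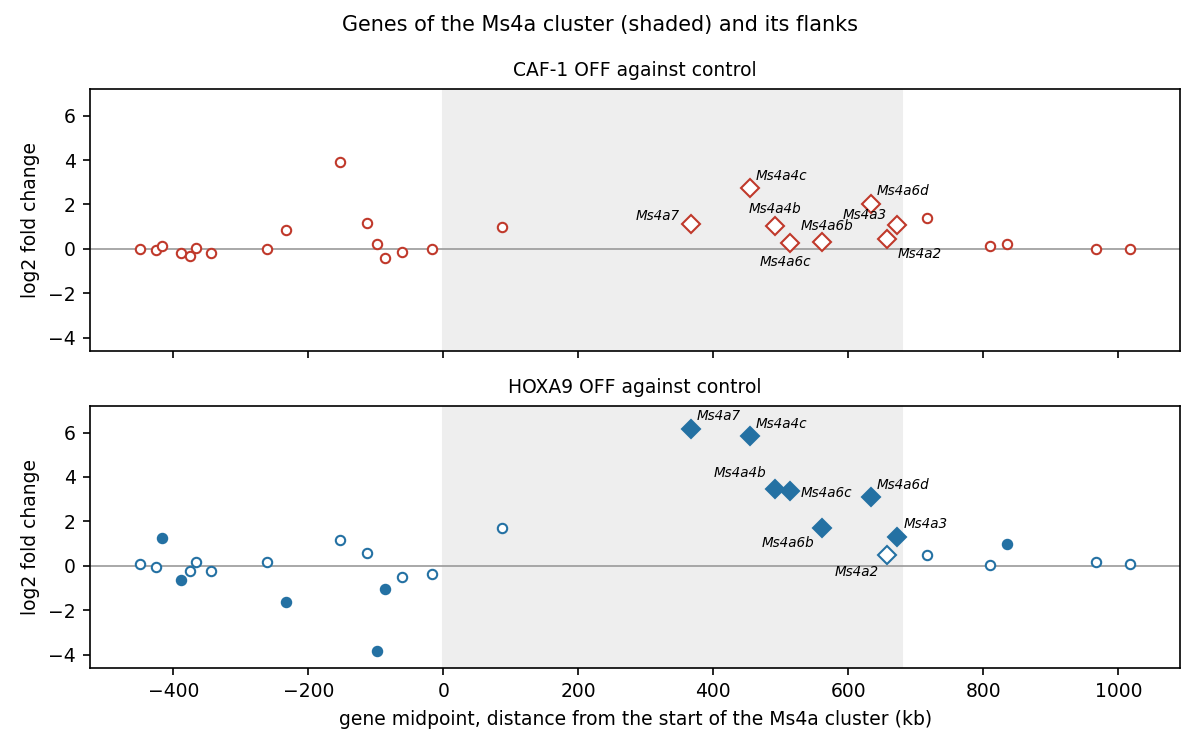
Log2 fold change of each tested gene by the distance of its midpoint from the start of the Ms4a cluster in kb, for CAF-1 OFF (upper) and HOXA9 OFF (lower) against control, with Ms4a genes as labelled diamonds, other genes as circles, called genes filled and the 679 kb cluster shaded. In the lower panel the 7 members are filled and above 0 while 6 of 20 flanking genes are filled, 2 above 0 and 4 below, where 22% of all genes tested were called, and in the upper panel every point is open.

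The genes whose profile over the 6 libraries lay nearest to each member were found by the root mean square difference of log2 CPM centred on the control mean, among 9615 genes with a mean of at least 5 CPM. Ms4a3 lay nearest to Cldn15 (0.14), Slpi (0.182) and Nat8l (0.202). Ms4a6b lay nearest to Pbxip1 (0.143), Trio (0.155) and Cpeb4 (0.187), and Ms4a6c to Bmf (0.186), Syne1 (0.242) and Dusp22 (0.258). Ms4a6d had no neighbour as close, with Axl at 0.488, Anxa1 at 0.503 and Pim1 at 0.55, and Ms4a7 lay nearest to Clec4a3 (0.705), Maf (0.842) and Gm11428 (0.866). No member was among the nearest 3 of another, and ranking by Pearson correlation instead gave 0 of the same 3 genes for each of these 5 members. Ms4a4b and Ms4a4c were under the CPM minimum and were left out.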

How the data were processed

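RNA-seq of 6 iGMP libraries (2 per group) was used. The authors aligned the reads with STAR to mm9 and counted them per gene with HTSeq, and the deposited values are raw counts per gene symbol, 1 file per library, with 5 tally lines that name no gene and were left out. Per 100 gene counts these held 5.95 to 8.26 reads with no feature, 3 to 3.28 ambiguous ones and 89.6 to 107 alignments that were not unique, and reads shared by near-identical copies may be among the last. The strand setting, overlap mode and gene annotation used for counting are not given in the sources used here. Groups were taken from the labels. Genes were filtered with filterByExpr (cutoff 0.521 CPM, minimum count 10), leaving 12460, scaled by TMM (factors 0.954 to 1.03) and tested with edgeR 4.0.16 (R 4.3.3) by the quasi-likelihood test with 1 mean per group over all 6 libraries. A gene was called at a Benjamini-Hochberg FDR under 0.05 over all genes tested and a fold change of at least 1.5. Intervals cover 95%. The script was tested on simulated data. CPM used TMM-scaled library sizes, RPKM divided CPM by union exon length in kb (GENCODE M1), and count ratios carry exact conditional intervals, which, like the floor of 3 counts, cover counting error only. Alternatives included DESeq2 1.42.0, edgeR's exact test, other filters, other cutoffs, a replicate block and leaving out each library. All 9 members were named, with the other family genes, partners, flanking genes called against control and the 3 nearest profiles. Members and lists were chosen with earlier results of these data known.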

Additional observations from a re-analysis of the deposited data

How the results depend on the processing

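Against control, the number of members called in CAF-1 OFF depended on the test and the filter. It was 0 in edgeR's quasi-likelihood fit but 3 without the filter on low counts, 3 with DESeq2's Wald test and 3 with edgeR's exact test, each time Ms4a3, Ms4a4c and Ms4a6d (DESeq2 FDR 0.00203, 0.0453 and 1.22e-05), with 378, 192 and 243 genes called in all in place of 4. The cause was not tested. Leaving out 1 library at a time gave 0 members throughout and 0 to 10 genes in all. In CAF-1 OFF against HOXA9 OFF, 6 members became 3 at 2-fold and an FDR under 0.01 (948 genes in all), and 3 to 5 when 1 library was left out, where the count over all genes was 1711 to 2718 in place of 2755. The 3 members that remained without CAF-1 OFF replicate 1 or HOXA9 OFF replicate 2 were Ms4a4c, Ms4a6b and Ms4a6c. In HOXA9 OFF against control the count was 6 or 7 when 1 library was left out (1602 to 2840 genes in all in place of 2740), 6 at 2-fold and an FDR under 0.01 (987 genes in all), and 5 of 5 tested at a mean of 5 CPM (2279 genes in all), which Ms4a7 reached only through HOXA9 OFF. The count of 1602 was that without control replicate 2.

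Estimates changed sign in 3 cases, all of contrasts that were not called. With 1 library left out at a time, Ms4a6c in CAF-1 OFF against control ran from -0.10 (without CAF-1 OFF replicate 2) to 0.55, Ms4a6b in the same contrast from -0.02 (without control replicate 1) to 0.67, and Ms4a3 in CAF-1 OFF against HOXA9 OFF from -0.52 to 0.14 (without HOXA9 OFF replicate 1). Using the longest transcript for length moved 8 RPKM values beyond 1 SD, for example that of Ms4a3 in control to 165, and changed the order of Ms4a6c and Ms4a6d in CAF-1 OFF, of Ms4a4c and Ms4a7 in HOXA9 OFF, and of Ms4a4b among the low members in control and CAF-1 OFF.

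With the replicate number as a block, the number of members called was 0 for CAF-1 OFF and 7 for HOXA9 OFF against control and 6 for the direct contrast, with 2, 2680 and 2684 genes in all. The labels do not say that numbers pair the libraries. The deviations of same-numbered libraries from their group means correlated at -0.178, 0.456 and 0.0329. With the numbers of CAF-1 OFF crossed, a pairing chosen after seeing the data, the replicate block gave 1 (Ms4a6d), 7 and 6 members, with 71, 2994 and 3030 genes in all. With 2 libraries per group and 2 to 7 control counts, the folds of Ms4a4b, Ms4a4c and Ms4a7 are known only roughly.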
